A study of Arabidopsis thaliana with 20 samples.

Results

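Expression of 4 tubulin genes and 1 formin gene was followed in laser-captured root cells of Arabidopsis thaliana. The genes are the alpha-tubulin TUA6 (AT4G14960), the beta-tubulins TUB5 (AT1G20010), TUB6 (AT5G12250) and TUB7 (AT2G29550), and the formin AT3G07540. They were taken by name, as the probe sets listed with 1 of these genes alone in the annotation of the array. Earlier results of these data were known when the genes were chosen, so the shares of them called are a description. Each of the 5 genes had 1 such probe set, so 5 of the 22746 probe sets outside the array's controls are described. All 5 were among the 14651 probe sets kept by the filter on low values, which asked for a signal above the median of the array in at least 3 of 12 samples. TUA6 and TUB7 lay above that median in 12 samples, TUB6 in 10, AT3G07540 in 8 and TUB5 in 5. For TUB5 all 5 were Pico samples, so this gene passed the filter only through the kit in which it was higher.

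All plants were of the Columbia ecotype and carried the same infestation, with no mutant or transgene named in the labels. Seedlings aged 3 weeks were infested with 1000 juveniles of Meloidogyne incognita, a root-knot nematode, and cells were cut from root sections 21 days later. Giant cells, the enlarged feeding cells that the nematode induces, made up 2 of the 4 groups, with about 80 cells in a sample. The other groups held about 150 root cells each, taken where the same infested roots had no nematodes, so no uninfested plant served as control. In each cell type, 1 group was amplified with the NuGEN WT-Ovation Pico kit after RNA isolation, and the other with the WT-Ovation One-Direct kit, for which cells went straight into lysis. Each group had 3 biological samples on 5 arrays, because 1 sample was split over 3 technical arrays, which were averaged and counted once. Kit and RNA isolation cannot be told apart, and neither can cell type and the number of cells captured. In such pooled material, fewer cells of a type and less RNA per cell cannot be told apart either.

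Alpha- and beta-tubulin pair into the dimers from which microtubules are built. In plant cells microtubules form the cortical arrays that guide the laying down of cellulose in the wall, and the spindle and phragmoplast of dividing cells. Formins are actin nucleators, which start and lengthen actin filaments, and some plant formins also bind microtubules. Giant cells grow for weeks while their nuclei divide without completed cell division, and rearrangement of both the actin and the microtubule cytoskeleton is known from microscopy of such cells.

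The 2 kits differed in precision. The correlation of a sample with the others of its group averaged 0.907 to 0.951 in the Pico groups and 0.618 to 0.797 in the One-Direct groups, lowest for sample 1 of the One-Direct control cells. Median signals of the samples ran from 167.7 to 311.4. The log2 ratio of 3′ to 5′ signal of GAPDH, a measure of RNA and amplification length, was 3.36 ± 0.92 (SD, n = 3) in One-Direct control cells and 2.24 ± 0.18 in One-Direct giant cells. It was 2.33 ± 0.20 in Pico control cells and 1.20 ± 0.16 in Pico giant cells, so the GAPDH ratio differed both between kits and between cell types. The actin and ubiquitin ratios did not follow it. In the same order of groups, actin gave 3.01, 2.56, 3.05 and 3.25, highest where GAPDH was lowest, and ubiquitin 2.78, 3.00, 2.90 and 2.67. The part of these ratios in the differences below was not tested.

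TUA6 is one of several alpha-tubulin genes of this plant. Its signal in the 3 One-Direct control samples was 929.7, 544.1 and 686.0, and in the One-Direct giant cell samples 1253, 574.8 and 626.5. In the Pico kit it was 3163, 1863 and 1446 in control cells and 2902, 2668 and 2218 in giant cells. Giant and control samples overlapped within each kit, while each One-Direct sample lay below each Pico sample.

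TUB5, a beta-tubulin, had signals of 24.6, 44.4 and 57.7 in One-Direct control cells and 131.7, 92.7 and 199.2 in One-Direct giant cells. In Pico control cells the signals were 478.3, 377.1 and 266.3, and in Pico giant cells 138.0, 182.4 and 217.5. The giant cell samples thus lay wholly above the control samples with One-Direct and wholly below them with Pico. The One-Direct control samples held the lowest values of the gene, and every One-Direct sample of either cell type lay below the median of its array. Median signals were 249.1 to 311.4 in One-Direct giant cell samples and 167.7 to 227.1 in One-Direct control samples. By percentile on the array, the One-Direct giant cell samples (35.3, 15.3 and 36.5) overlapped the control samples (14.3, 14.8 and 22.8).

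TUB6 had signals of 599.9, 377.6 and 535.2 in One-Direct control cells and 404.4, 279.0 and 186.4 in One-Direct giant cells. In the Pico kit the control samples gave 1312, 1356 and 1125 and the giant cell samples 654.3, 933.7 and 826.7. With Pico every giant cell sample lay below every control sample, and with One-Direct the groups overlapped, because giant cell sample 1 exceeded control sample 2.

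TUB7 had signals of 360.2, 478.4 and 684.3 in One-Direct control cells and 883.1, 474.2 and 438.1 in One-Direct giant cells. With Pico it reached 1011, 782.0 and 1149.5 in control cells and 1073, 1084 and 1084 in giant cells. Giant and control samples overlapped with either kit. On the log2 scale the 3 Pico giant cell samples of TUB7 had an SD of 0.0087, against 0.28 in Pico control cells, 0.45 in One-Direct control cells and 0.54 in One-Direct giant cells. The technical arrays of the split Pico giant cell sample had a larger SD, 0.31, so the agreement of these 3 samples was closer than that of repeat arrays of 1 of them.

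The formin AT3G07540 had signals of 54.6, 169.0 and 177.2 in One-Direct control cells and 1258, 832.0 and 233.2 in One-Direct giant cells. With Pico it had 381.7, 612.3 and 520.6 in control cells and 833.9, 989.5 and 1036 in giant cells. Giant cell samples lay above control samples with either kit, by a wide margin for 2 of the 3 One-Direct samples and narrowly for sample 3. The value of One-Direct control sample 2 is the mean of 3 technical arrays that read 360.8, 666.3 and 8.62, an SD of 2.56 on the log2 scale. Only 0.416% of the kept probe sets had a technical SD that large in this group, where the median was 0.647. Both higher arrays exceeded One-Direct giant cell sample 3. In the other groups the technical arrays of this gene spanned 699.7 to 1875 (One-Direct giant cells), 453.7 to 789.1 (Pico control cells) and 725.2 to 923.2 (Pico giant cells).

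**Figure D1:**
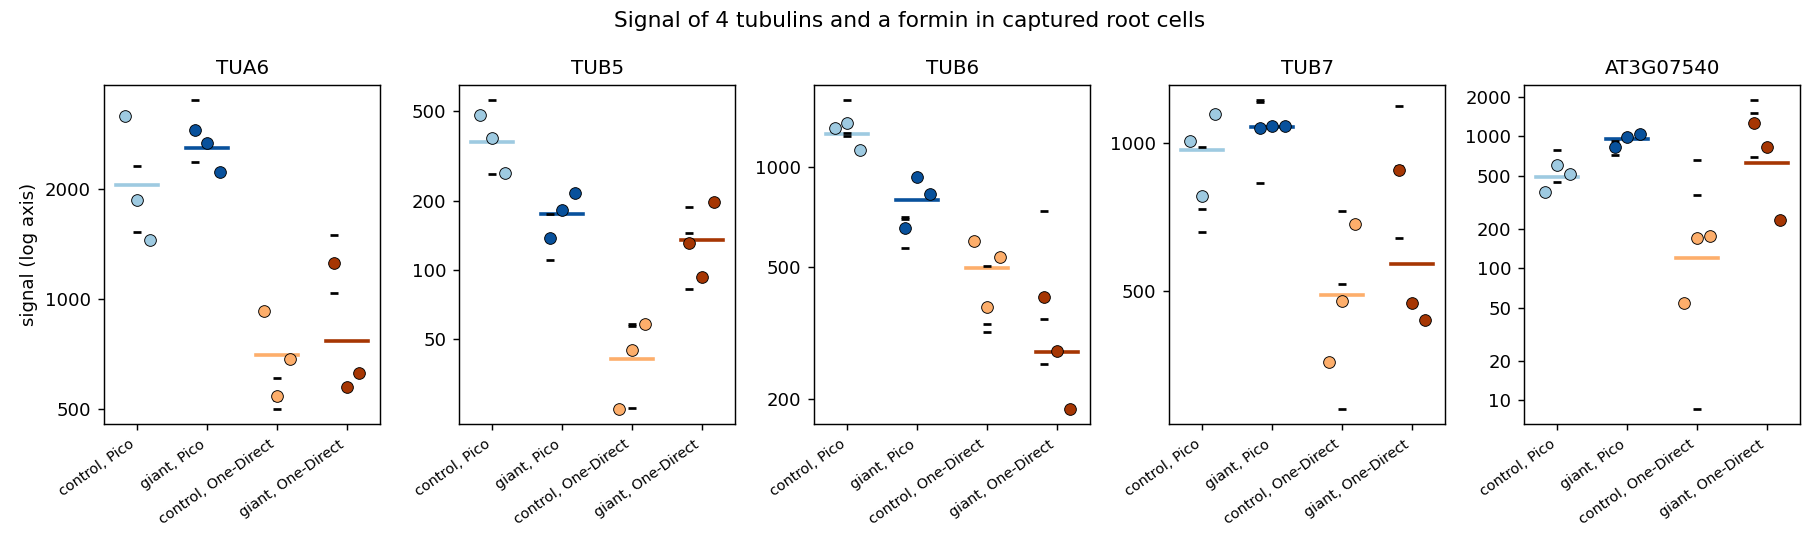
Signal (linear MAS5 units on a log axis) of the 4 tubulins and the formin in the 12 biological samples. Circles are samples, 3 per group from left to right as samples 1 to 3, black ticks are technical arrays of the split sample, and lines are group means on the log2 scale. The TUB5 circles of giant cells lie above the control circles with One-Direct and below them with Pico.

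The first comparison asks which of these genes differed between giant and control cells. Averaged over the kits, the formin rose in giant cells by 1.58 on the log2 scale (SE 0.40), a 2.99-fold difference, while no tubulin passed the test. TUB6 had a log2 change of -0.73 (SE 0.26, limma adjusted p = 0.0625). The changes of TUA6, TUB5 and TUB7 were 0.23 (SE 0.29), 0.22 (SE 0.28) and 0.18 (SE 0.27), each within 1 SE of 0. TUB5 turned to -0.08 under quantile normalization and TUB7 to -0.02 under median centring.

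The formin was thus the 1 gene of the 5 called at an adjusted p under 0.05 (limma, adjusted p = 0.0156). Of all kept probe sets 19.6% were called in this comparison, so 1 of 5 is near the background share. The median change over all kept probe sets was 0.24, and relative to it the formin changed by 1.34 and TUB6 by -0.97. The median moved to 0.17 under quantile normalization and 0.03 under median centring. Under these settings TUB6 had a change of -1.005 (adjusted p = 0.0419) and -0.93 (adjusted p = 0.0448), and over all alternatives its adjusted p ran from 0.0225 to 0.150. TUB6 also passed the test without One-Direct control sample 2 (-0.82, adjusted p = 0.0431) or One-Direct giant cell sample 1 (-0.86, adjusted p = 0.0363). It passed in 7 of 23 alternatives, among them the first technical array alone (-0.92, adjusted p = 0.0225). For the formin the range was 0.0034 to 0.0730, and the call was lost with quantile normalization and with the first technical array alone.

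Within One-Direct, the formin rose by 2.25 (SE 0.56, limma adjusted p = 0.0368), a 4.74-fold difference. TUB5 was higher by 1.42 (SE 0.39, adjusted p = 0.0518), and TUB6 had a change of -0.80 (SE 0.36, adjusted p = 0.191). TUA6 and TUB7 changed by 0.12 (SE 0.41) and 0.21 (SE 0.38). That is 1 of 5 called, where 5.64% of all kept probe sets were called. This call of the formin held in 7 of 24 alternatives. It was lost without control sample 1 (1.77, adjusted p = 0.0690), without giant cell sample 1 (1.76, adjusted p = 0.0881) and without giant cell sample 2 (2.05, adjusted p = 0.131), in a range of 0.0281 to 0.204. It was also lost without any 1 of 5 Pico samples, all but control sample 1, with the change itself at 2.25 and adjusted p of 0.0527 to 0.0590. TUB5 passed the test without control sample 3 (1.61, adjusted p = 0.0373) and with a constant of 1 (1.74, adjusted p = 0.0433), in a range of 0.0373 to 0.332. Its change was 0.72 under quantile normalization (adjusted p = 0.332) and 0.93 under median centring (adjusted p = 0.179). TUB5 and the formin were the genes whose 3 giant cell samples all lay above the 3 control samples, as did 14.6% of all kept probe sets.

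Within Pico, 0 of 5 were called by limma, with 9.48% of all kept probe sets called. An unadjusted p under 0.05 was reached by 1 of 5, TUB5, and by 3269 of the 14651 kept probe sets, so 1 of 5 is near the background share. The formin changed by 0.92 (SE 0.56, adjusted p = 0.382), TUB5 by -0.98 (SE 0.39, adjusted p = 0.153) and TUB6 by -0.65 (SE 0.36, adjusted p = 0.326). TUA6 and TUB7 changed by 0.33 (SE 0.41) and 0.15 (SE 0.38). Samples of giant cells lay wholly above those of control cells for 1 gene, the formin, against 25.0% of all kept probe sets. They lay wholly below for TUB5 and TUB6, against 17.5%. When only the 6 Pico samples entered the fit, the formin had an adjusted p of 0.0450, in a range of 0.0450 to 0.624 over the alternatives. TUB5 was called with sample quality weights (-1.07, adjusted p = 0.0147) and with a weight per kit (adjusted p = 0.0220), in a range of 0.0147 to 0.408. TUB6 was called with sample quality weights (-0.76, adjusted p = 0.0399), in a range of 0.0399 to 0.613. The median SD between biological samples was 0.306 and 0.371 in the Pico groups and 0.463 and 0.759 in the One-Direct groups, and the fit over all 12 samples used 1 spread for both.

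**Figure D2:**
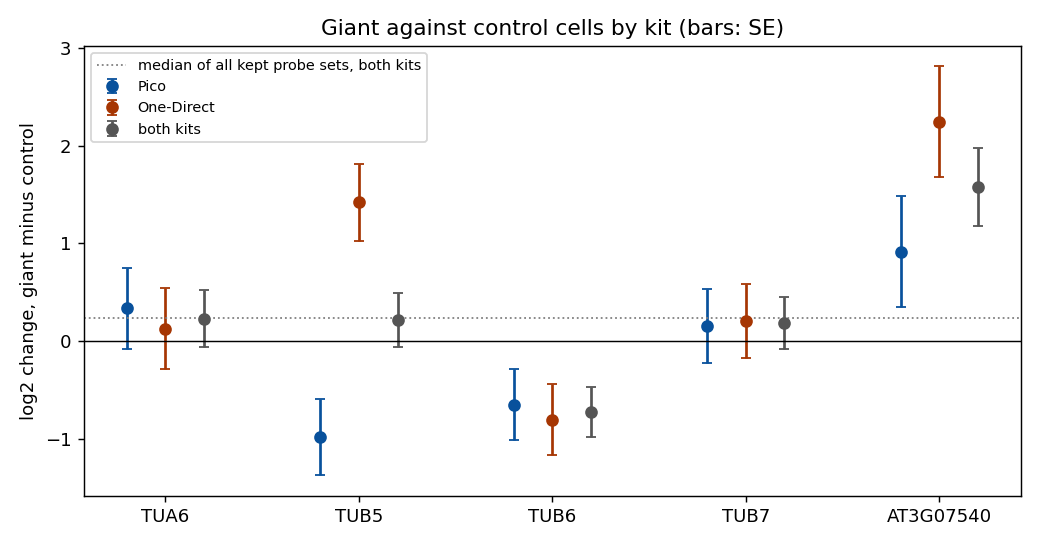
Log2 change of giant against control cells for the 5 genes within Pico, within One-Direct and over both kits. Points are limma estimates, bars are 1 SE and the dotted line is the median of all kept probe sets over both kits (0.24). The estimates of TUB5 lie at 1.42 with One-Direct and -0.98 with Pico, on opposite sides of 0.

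The design also asks whether the giant cell difference depended on the kit. TUB5 had the largest such difference of the 5 genes, 2.40 on the log2 scale (SE 0.55, One-Direct minus Pico), with an unadjusted p of 0.0008 and a limma adjusted p of 0.162. The formin followed with 1.33 (SE 0.80, adjusted p = 0.669). That value was 0.86 without One-Direct control sample 1, 0.84 without One-Direct giant cell sample 1 and 2.02 without One-Direct giant cell sample 3, and over all alternatives it ran from 0.37 to 2.02 with adjusted p from 0.441 to 0.901. For TUA6, TUB6 and TUB7 the differences were -0.21, -0.15 and 0.05, each smaller than its SE, and each changed sign under at least 1 alternative. By limma 0 of 5 genes were called and 1 of 5 had an unadjusted p under 0.05. Of all kept probe sets 3 were called, or 0.0205%, although 1346 had an unadjusted p under 0.05. The signals of TUB5 in One-Direct control cells, the lowest of its groups, were of the same order as the constant of 16 added before the logarithm, which makes fold changes of dim probe sets smaller.

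The next comparison sets the kits against each other. All 5 genes fell in One-Direct relative to Pico when averaged over the cell types. The log2 changes were -1.62 for TUA6 (SE 0.29, limma adjusted p = 0.000826), -1.55 for TUB5 (SE 0.28, adjusted p = 0.000762) and -1.40 for TUB6 (SE 0.26, adjusted p = 0.000934). They were -0.93 for TUB7 (SE 0.27, adjusted p = 0.0152) and -1.25 for the formin (SE 0.40, adjusted p = 0.0272). Signals were thus 1.91-fold (TUB7) to 3.08-fold (TUA6) lower with One-Direct. Because TUB5 passed the filter through Pico samples alone, its kit differences here and below are a description and no independent support. Of all kept probe sets 34.3% were called in this comparison and 16.3% were called lower, with a median change of -0.09, which moved to -0.23 under quantile normalization and -0.47 under median centring. These calls of the 4 tubulins held in all 23 alternatives. For the formin 7 alternatives ended the call, among them leaving out One-Direct giant cell sample 3 (-0.90, adjusted p = 0.0562), and Pico samples 2 and 3 of either cell type each (changes of -1.17 to -1.23, adjusted p of 0.0544 to 0.0626), in a range of 0.0046 to 0.110.

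Split by cell type, the kit difference was uneven for TUB5 and the formin. In control cells One-Direct signals of TUB5 were 6.72-fold lower (log2 change -2.75, SE 0.39, limma adjusted p = 0.000354), whereas in giant cells the change was -0.35 (SE 0.39, adjusted p = 0.598). Under quantile normalization the latter was -1.39 and passed the test (adjusted p = 0.0391, range 0.0391 to 0.917). The formin changed by -1.91 in control cells (SE 0.56, adjusted p = 0.0286) and by -0.58 in giant cells (SE 0.56, adjusted p = 0.535). The latter was 0.11 without One-Direct giant cell sample 3. The test of unevenness between cell types is the same as that of the giant cell difference between kits, given above, and neither gene passed it. The changes of TUA6 were -1.52 in control cells and -1.73 in giant cells, and those of TUB6 -1.32 and -1.47. TUB7 had changes of -0.96 (adjusted p = 0.0873) and -0.91 (adjusted p = 0.110).

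In control cells 4 of 5 genes were called, against 21.3% of all kept probe sets, and all 5 had One-Direct samples wholly below the Pico samples, as 18.9% of all kept probe sets did. In giant cells 2 of 5 were called, TUA6 and TUB6, against 21.2%, and TUA6, TUB6 and TUB7 did not overlap between kits, against 22.3%. Several of these calls were lost when 1 sample was left out, in some cases with little change in the estimate. In control cells TUA6 was not called without Pico sample 1 (-1.20, adjusted p = 0.0948) or One-Direct sample 2 (-1.34, adjusted p = 0.0522), in a range of 0.0069 to 0.0948. TUB6 in control cells was not called without Pico sample 1 (-1.29, adjusted p = 0.0673), Pico sample 2 (-1.27, adjusted p = 0.0651) or One-Direct sample 2 (-1.13, adjusted p = 0.0531), in a range of 0.0091 to 0.0751. In giant cells TUB6 was not called without One-Direct sample 3 (-1.21, adjusted p = 0.0558), in a range of 0.0011 to 0.0558. The formin in control cells lost its call without One-Direct sample 1 (-1.44, adjusted p = 0.0810) or any 1 of the Pico samples (-2.09, -1.76 and -1.88, adjusted p of 0.0509 to 0.0920), in a range of 0.0094 to 0.102. TUB7 was called in control cells without One-Direct sample 3 (-1.19, adjusted p = 0.0446, range 0.0446 to 0.229) and, in giant cells, without One-Direct sample 1 (-1.22, adjusted p = 0.0379, range 0.0075 to 0.314).

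The kit difference of a probe set moved with its brightness. Among protein-coding probe sets within 0.5 log2 units of the mean of each gene over the 12 samples, the median kit difference was 0.24 around TUB5 and between -0.24 and -0.12 around the others. All 5 genes lay below the first quartile of their own window, which was -0.72 for TUA6 (992 probe sets), -0.52 for TUB5 (1675), -0.65 for TUB6 (1778), -0.65 for TUB7 (1627) and -0.62 for the formin (2067). The share called lower in these windows ran from 10.6% around TUB5 to 20.2% around TUA6.

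**Figure D3:**
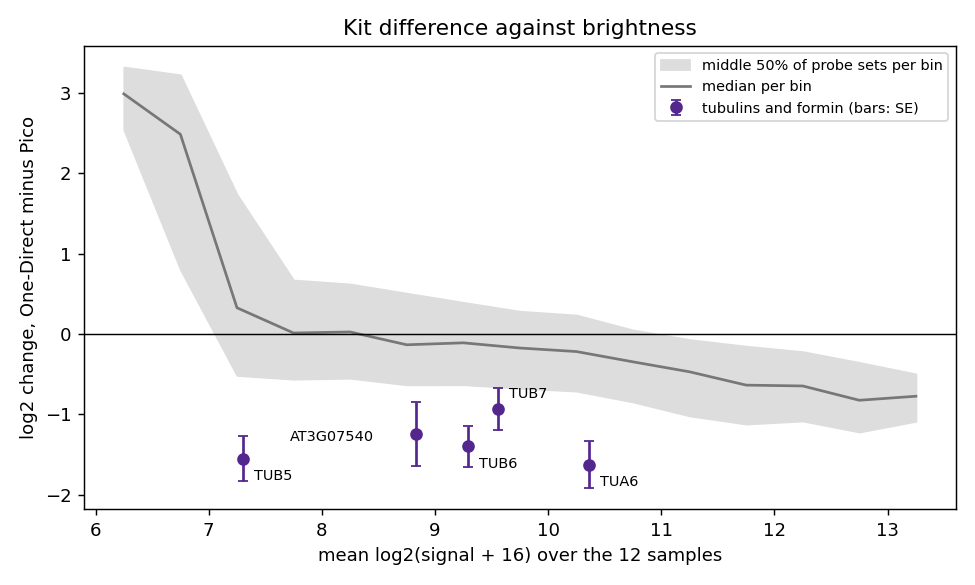
Log2 change of the 5 genes and all others between One-Direct and Pico, averaged over cell types, against the mean log2(signal + 16) over the 12 samples. Purple points are the 5 genes with 1 SE, the grey line is the median of protein-coding probe sets per bin and the band holds the middle 50% of them. The 5 genes lie between -0.93 and -1.62, below the band.

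Related genes of the cytoskeleton were read from lists of 86 genes, of which 22 had a probe set listed with 1 gene and 18 were kept. Of these 18, 2 rose and 0 fell in giant cells over both kits (limma, 6 with an unadjusted p under 0.05). Of all 14651 kept probe sets 10.5% were called higher and 9.04% lower, and 5060 had an unadjusted p under 0.05, so 6 of 18 is near the background share. The median change of the 18 was 0.20, against 0.24 for all kept probe sets. Between the kits 2 were higher and 7 lower in One-Direct, with a median of -0.64, where 18.0% of all kept probe sets were called higher and 16.3% lower with a median of -0.09. The tubulins and the formin described above are part of these counts. So are TUB5 and AT3G05470, which each passed the filter only through the kit in which they were higher. The lists of actins and actin-binding proteins, cellulose synthases, and mitosis and cytokinesis had 0 kept members and could not be read.

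Among alpha-tubulins, 2 of 6 genes were kept. Beside TUA6 this was TUA1, which changed by 0.47 in giant cells (SE 0.35, adjusted p = 0.365) and by 0.08 between the kits (SE 0.35, adjusted p = 0.886), the latter turning to -0.39 under quantile normalization and -0.30 under median centring. Among 9 beta-tubulins 4 were kept and TUB1 was on the array but not kept. TUB9 changed by -0.06 in giant cells (SE 0.34, adjusted p = 0.924) and by -0.50 between the kits (SE 0.34, adjusted p = 0.289). Thus 0 of 6 kept tubulins were called between giant and control cells (limma, 1 with an unadjusted p under 0.05, TUB6), and 4 of 6 were called lower in One-Direct. The shares over all kept probe sets were 19.6% called for giant cells and 16.3% called lower for the kits. For giant cells 5060 of the 14651 kept probe sets had an unadjusted p under 0.05. Tubulin genes are similar in sequence, and how far a probe set read its relatives was not tested.

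Of 10 genes for tubulin folding and nucleation, PFI and POR, which encode tubulin-folding cofactors, were kept. PFI changed by 0.64 in giant cells (SE 0.33, adjusted p = 0.192) and 0.17 between the kits, and POR by 0.15 and -0.35. PFI was called in giant cells without One-Direct control sample 3 (0.93, adjusted p = 0.0244, range 0.0244 to 0.402). The kit change of PFI turned to -0.21 and the giant cell change of POR to -0.06 under median centring, and 0 of these 4 changes were called (limma, 0 with an unadjusted p under 0.05). Of 18 microtubule-associated proteins 2 were kept. SPR1, which acts at microtubule plus ends and in directional cell growth, fell in One-Direct by 1.87 on the log2 scale (SE 0.28, adjusted p = 0.000204), from 4008 to 5733 across the Pico samples to 546.5 to 1930 across the One-Direct samples. Its change in giant cells was 0.45 (SE 0.28, adjusted p = 0.277). ATMAP65-6, of the family of microtubule-bundling proteins, changed by -0.55 in giant cells (SE 0.37, adjusted p = 0.311) and by -0.77 between the kits (SE 0.37, adjusted p = 0.120). The kit change of ATMAP65-6 was called without One-Direct giant cell sample 1 (-1.07, adjusted p = 0.0190), with median centring (-1.16, adjusted p = 0.0283) and with sample 1 of each One-Direct group left out (-1.13, adjusted p = 0.0118), in a range of 0.0118 to 0.273.

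The list of formins, drawn up by locus, had 19 genes, of which 9 were on the array and 8 kept. In giant cells 2 of the 8 rose and 0 fell, with a median of 0.39, against 10.5% higher and 9.04% lower of all kept probe sets. The rise of AT3G07540 is part of this count. By limma 5 of the 8 had an unadjusted p under 0.05, with changes in both directions. Of all 14651 kept probe sets 5060 had such an unadjusted p. The larger rise was that of AT5G58160, by 1.74 (SE 0.37, limma adjusted p = 0.0067), and this call held in all 23 alternatives. Its signal was 282.3, 53.5 and 62.5 in One-Direct control cells and 386.8, 368.4 and 472.4 in One-Direct giant cells, and 136.2, 183.1 and 356.0 in Pico control cells and 555.4, 738.3 and 769.6 in Pico giant cells. All giant cell samples lay above all control samples with either kit, and the changes within a kit were 1.85 (adjusted p = 0.0569) and 1.64 (adjusted p = 0.0717).

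AT2G43800 changed by 1.08 (SE 0.43, adjusted p = 0.0951) and AT1G59910 by -0.84 (SE 0.34, adjusted p = 0.0983) in giant cells. AT2G43800 was called without One-Direct control sample 2 (1.42, adjusted p = 0.0191, range 0.0191 to 0.200), and AT1G59910 without One-Direct control sample 1 (-1.03, adjusted p = 0.0287, range 0.0126 to 0.222). The 4 other kept formins ranged from -1.12 to 0.60 and were not called.

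Between the kits the formins did not share a direction. AT3G05470 was higher in One-Direct by 3.00 (SE 0.45, adjusted p = 0.0002), with signals of 167.2 to 1191 in One-Direct samples and 16.9 to 85.6 in Pico samples. All Pico samples of AT3G05470 lay below the median of their arrays, so it passed the filter through One-Direct samples alone. Its kit difference is therefore a description and no independent support. AT5G07740 was higher by 1.20 (SE 0.35, adjusted p = 0.0179), and was not called without One-Direct giant cell sample 3 (1.04, adjusted p = 0.0503, range 0.0034 to 0.0603). AT2G43800 was lower (-1.29, SE 0.43, adjusted p = 0.0323), as was AT3G07540. The call of AT2G43800 was lost without any 1 of 7 samples, with adjusted p of 0.0575 to 0.0769. Those samples were One-Direct giant cell samples 2 and 3, Pico control samples 2 and 3, and the 3 Pico giant cell samples. Over the 8 kept formins the median kit difference was -0.02.

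**Figure D4:**
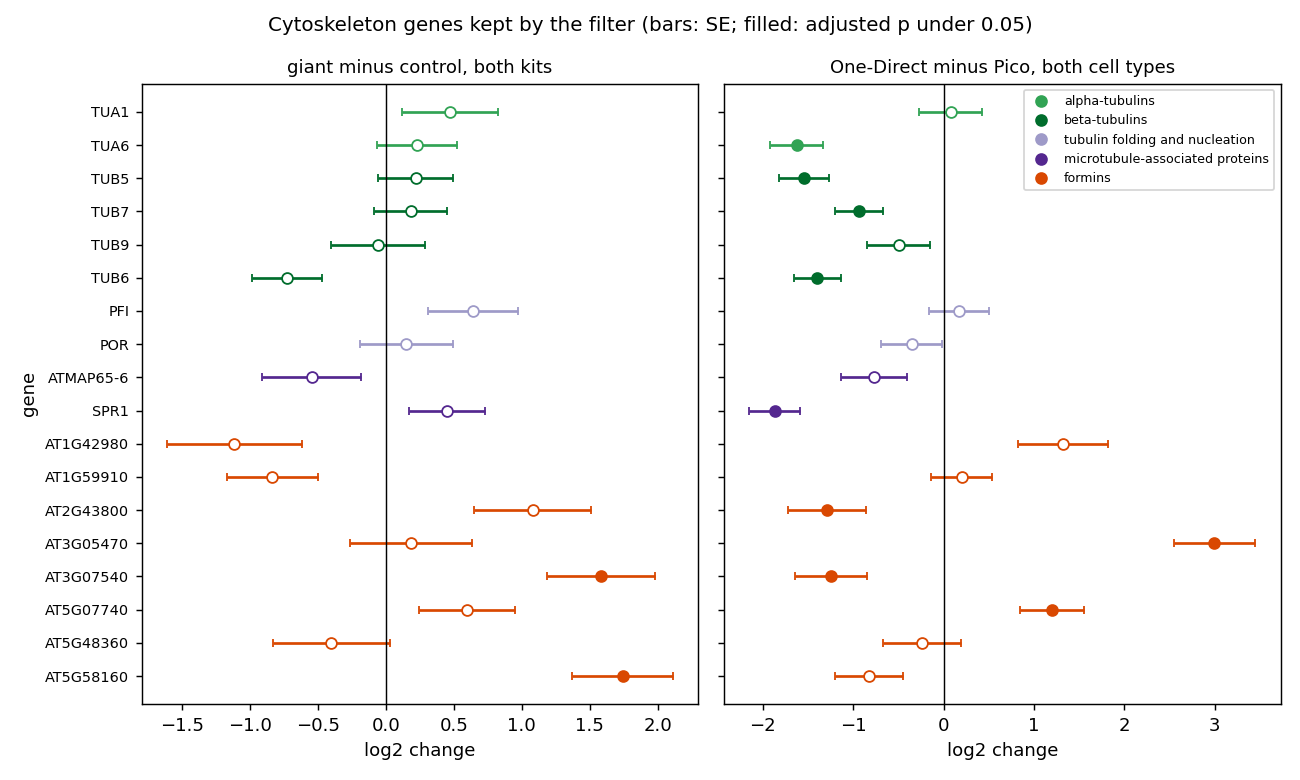
Log2 change of the 18 kept cytoskeleton genes in giant against control cells (left) and in One-Direct against Pico (right). Points are limma estimates with 1 SE, coloured by list, and filled where the adjusted p was under 0.05. On the left the filled points are the formins AT3G07540 and AT5G58160, and on the right 7 filled points lie below 0 and 2 above.

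Markers of other root cell types were read beside these genes. Of 26 markers 6 were on the array and 3 kept, and no xylem or endodermis marker was among the 6. Giant cells were not checked against markers of their own. The summed signal of the 6 ran from 360.7 to 1408 in One-Direct control cells and from 397.1 to 1436 in One-Direct giant cells. It ran from 1553 to 4869 in Pico control cells and from 144.7 to 224.6 in Pico giant cells. SWEET11, a sucrose transporter of the phloem, fell in giant cells over both kits (log2 change -3.73, SE 0.51, limma adjusted p = 0.000462). Its change was -5.50 within Pico (adjusted p = 0.000642) and -1.95 within One-Direct (adjusted p = 0.120, not called). Its signal in Pico giant cells was 5.81, 80.9 and 1.28, against 985.9 to 2329 in Pico control cells. All giant cell samples of SWEET11 lay below the median of their arrays, so it passed the filter through control cells alone. Its fall in giant cells is therefore a description and no independent support. The cortex marker AT1G09750 changed by -1.81 (SE 0.72, adjusted p = 0.0935) over both kits, by -4.24 within Pico (adjusted p = 0.0191) and by 0.61 within One-Direct (adjusted p = 0.742). Over both kits it was called without One-Direct giant cell sample 2 (-2.40, adjusted p = 0.0238, range 0.0238 to 0.206). Only the Pico control samples of AT1G09750 lay above the median of their arrays, so it passed the filter through that group alone. Its changes against that group are a description and no independent support. The pericycle marker LBD16 changed by -0.21 (SE 0.45, adjusted p = 0.771). The control cells therefore carried more marker signal than giant cells in the Pico kit, and the part of this in the values of the tubulins and the formin was not tested.

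The 5 genes followed each other to differing degrees. Over the 12 samples Pearson's r between pairs ran from 0.21 (TUB6 and the formin) to 0.82 (TUA6 and TUB7). These samples share 2 kits and 2 cell types, and after the group means were removed r ran from -0.18 (TUB5 and TUB6) to 0.67 (TUB7 and the formin). Within groups TUA6 and TUB6 had an r of 0.62, and TUA6 and the formin of 0.003.

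Among 8164 kept probe sets listed with 1 other gene, the 3 most like each of the 5 genes were found by Pearson's r over the 12 samples. For TUA6 they were AT4G20150, AT5G42060 and AT5G67510, with r of 0.949 to 0.955. For TUB5 they were AT3G61490, RALFL34 and AT1G36060, with r of 0.912 to 0.921, but after removal of group means these fell to 0.21 to 0.40. For TUB6 they were PRXR1, APA1 and AT4G09830, with r of 0.956 to 0.967. For TUB7 they were AT3G09630, AT1G24510 and AT4G12600, with r of 0.961 to 0.972 and, after removal of group means, of 0.887 to 0.922. For the formin AT3G07540 they were AT1G67360, AT5G40660 and AT3G06980, with r of 0.949 to 0.962 and of 0.851 to 0.889 after removal of group means. These are the highest of many correlations over few samples and are given as a description.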

How the data were processed

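The authors deposited 1 linear intensity (signal) for each probe set on each of 20 arrays. Per the submitters' processing notes, Affymetrix Expression Console and MAS5 were used; the versions used are not given in the sources. Each array had a trimmed mean (2% at each end) of about 500. From the deposited intensity, log2(signal + 16) was computed and technical arrays were averaged on that scale. Means of 4 groups were fitted to the 12 biological samples with limma 3.58.1 (R 4.3.3, lmFit and eBayes), with Benjamini-Hochberg adjustment over 14651 kept probe sets, a threshold of 0.05, two-sided tests and 7 contrasts. The procedure was tested on simulated data for giant against control cells over both kits only. Each simulated probe set had the same spread in all samples, so the unequal spread of the kits was not covered.

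Of 22746 probe sets, 13513 were listed with 1 gene, 503 with several and 8730 not listed; symbols were updated from RefSeq (TAIR10.1), used for names only. Members and lists were chosen with earlier results of these data known. From lists with more than 5 kept genes, the 4 with the smallest adjusted p in each comparison were named, otherwise all.

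The labels do not tie samples to separate plants, so the p-values reflect no more than the spread among these 12 samples, which may be technical. Replicate numbers did not pair the samples: of 18 same-numbered pairs across groups, 1 had a correlation of deviations over 0.1 (range -0.06 to 0.14). The number of arrays limits the precision. Alternatives varied the added constant, filter, normalization, technical arrays, weights, block and samples. 0 arrays were identical.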

Additional observations from a re-analysis of the deposited data

Results flagged for a closer look

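The giant cell difference of TUB5 ran in opposite directions with the 2 kits. In signal, every One-Direct giant cell sample lay above every One-Direct control sample, and every Pico giant cell sample lay below every Pico control sample. By percentile on the array the One-Direct giant cell and control samples overlapped. The size of the One-Direct change depended on scaling. It was 1.42 in the main fit, 0.72 under quantile normalization (limma adjusted p = 0.332) and 0.93 under median centring (adjusted p = 0.179). The difference between the effects, One-Direct minus Pico, was 2.40 on the log2 scale (SE 0.55, n = 3 per group, limma adjusted p = 0.162), so it did not pass the test over all kept probe sets. Over the alternatives it ran from 1.61 to 2.78, with adjusted p from 0.0930 to 0.720. The GAPDH 3′/5′ log2 ratio was 3.36 in One-Direct control cells, where TUB5 was lowest, and 1.20 to 2.33 in the other groups. The actin ratio was 3.01 there and 2.56 to 3.25 elsewhere, and the ubiquitin ratio 2.78 and 2.67 to 3.00. The part of these ratios in the difference was not tested.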

How the results depend on the processing

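Over 24 alternatives and 35 changes of the 5 genes, 825 values were compared: 741 kept direction and side of the threshold, 41 lost a call, 19 gained one and 24 changed sign, 0 of these with a called main value. The number of the 5 genes called in giant against control cells over both kits (1) was 2 with median centring, with sample quality weights and with sample 1 of each One-Direct group left out (an alternative added after seeing the data), and 1 to 2 with 1 sample left out. That number stayed at 1 with quantile normalization and with the first technical array alone, but the called gene was TUB6 in place of the formin. Within One-Direct (1) it was 2 with a constant of 1, 0 to 2 with 1 sample left out, and 0 with quantile normalization, median centring, the first technical array alone, only the compared samples, sample quality weights, a weight per kit, the replicate block (formin adjusted p = 0.0505), the linear mean of technical arrays (also added later) and without both samples 1. Within Pico (0) it was 1 with only the compared samples, 2 with quality weights (TUB5 and TUB6) and 1 with a weight per kit. For the kits it was 2 (main 4) in control cells with only the compared samples, 1 to 5 with 1 sample left out, and in giant cells (main 2) 1 to 3. A pairing by replicate number was neither shown nor excluded, and the block changed no other call of the 5 genes.

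Signs changed only in changes that were not called, as follows. Over both kits TUB5 was -0.0832 with quantile normalization, and TUB7 -0.0248 with median centring and -0.0819 without both samples 1. Within One-Direct TUB7 was -0.0462 with quantile normalization, -0.28 with median centring, -0.32 without both samples 1 and -0.10 to 0.44 with 1 sample left out. TUA6 there was -0.36 with median centring, -0.0175 with the first technical array, -0.0253 without both samples 1 and -0.22 to 0.33 with 1 sample left out. The formin kit change in giant cells was -1.07 to 0.11 with 1 sample left out. The effect difference between kits was, for TUB7, -0.14 (quantile), -0.51 (centring), -0.11 (weights), -0.47 (without both samples 1) and -0.26 to 0.29 with 1 sample left out, for TUB6 0.11 (weights) and -0.41 to 0.11, and for TUA6 -0.56 to 0.0376. In giant cells TUB9 was -0.32 to 0.0767, LBD16 -0.62 to 0.0553 and POR -0.14 to 0.34 with 1 sample left out, and POR -0.0795 (quantile) and -0.0558 (centring). Between the kits TUA1 was -0.39 (quantile), -0.30 (centring), -0.15 (weights), -0.13 (without both samples 1) and -0.12 to 0.24 with 1 sample left out, and PFI -0.21 (centring) and -0.11 to 0.37. The causes were not tested.

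The number of probe sets called ran from 1808 to 4334 for giant against control cells over both kits (main 2868), 0 to 1720 within One-Direct (826), 724 to 4101 within Pico (1389), 4265 to 8220 for the kits (5027), 1701 to 3878 in control cells (3122), 2126 to 6178 in giant cells (3099) and 0 to 53 for the effect difference (3). The upper ends 8220, 3878 and 6178 came without the filter, with 22746 probe sets tested in place of 14651. The share of calls that were higher was 53.8% over both kits, 42.3% with quantile normalization and 33.7% with centring. It was 62.7%, 40.6% and 22.1% within One-Direct, 52.4%, 43.4% and 31.2% between the kits and 71.7%, 54.9% and 32.7% between the kits in giant cells.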
